A study of Mus musculus with 16 samples.

Results

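The cells described here are single *ScxGFP* iPSC-derived mesodermal cells at T0 that held mRNA of *Dkk1* or *Shisa3*, a pair of genes for Wnt inhibitors. They were selected on the measured values. Of 1152 wells sorted at T0, 1147 had at least 200 detected genes, 1071 of these also had at least 3000 unique molecular identifiers (UMIs, 1 per captured mRNA molecule), and 77 of these held 2 or more UMIs of *Tdgf1*, a pluripotent marker, and were set aside. Among the 994 wells left, 343 had a *Dkk1* and *Shisa3* sum of 2 or more and are called positive, 481 had a sum of 0 and are called negative, and 170 had a sum of 1 and entered neither class. The whole series has 4608 wells. Just inside the limit lay 93 wells with a sum of 2, just outside it the 170 wells with a sum of 1, and the highest sum was 39.

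The iPSCs came from embryonic fibroblasts of *ScxGFP* transgenic mice, in which regulatory sequence of the tendon gene *Scx* drives GFP, and all wells of the study share this transgene. They were kept on feeder cells under 2i LIF conditions and then differentiated to mesoderm, for 4 days by the labels and with CHIR and cyclopamine by the methods. CHIR inhibits GSK3 and thereby stabilises β-catenin, and cyclopamine blocks hedgehog signalling. By the methods both compounds were withdrawn before T0. The cells then passed through a recovery step and a pre-conditioning step at lower serum, both without these compounds. T0 cells had received no TGF-β2, while T3, T6 and T9 cells had received 10 ng/ml of recombinant human TGF-β2 for 3, 6 and 9 days. Live single cells were sorted with doublets gated out, 3 plates of 384 wells per time point. The iPSC line carried forward in the study was 1 clone, *ScxGFP* iPSC-20. Whether the plates were separate cultures is not stated in the sources used here. The p-values therefore measure only how far the class difference varied between plates, and that variation may be technical.

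*Dkk1* encodes a secreted protein that binds the Wnt co-receptors LRP5 and LRP6 and blocks β-catenin signalling, and it is itself a β-catenin target. *Shisa3* belongs to a family first known for holding Frizzled and FGF receptors back inside the cell. *Msx1* and *Lhx2* encode homeobox factors of limb bud mesenchyme, where Wnt, BMP and FGF signals set growth and pattern. *Dkk1* lies on chr19:30545863-30549665 (minus strand), *Shisa3* on chr5:67607882-67623552 (plus strand), *Msx1* on chr5:37820485-37824583 (minus strand) and *Lhx2* on chr2:38339281-38369733 (plus strand) of GRCm38, and all 4 are protein-coding. Exons of *Shisa3* overlap those of *Atp8a1* on the other strand, and the strand setting of the counting is not given in the sources used here.

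The promoters of the genes that define the class and of *Msx1* are shown because the cells had been exposed to a β-catenin activator. Each covers 250 bases before and 50 bases after a RefSeq gene start in GRCm38.p6, with the letters CTTTGAA or CTTTGAT, read by TCF/LEF factors, searched on both strands and set in capitals. The windows are chr19:30549447-30549746 (minus strand), chr5:67607633-67607932 (plus strand) and chr5:37824536-37824835 (minus strand).
Dkk1: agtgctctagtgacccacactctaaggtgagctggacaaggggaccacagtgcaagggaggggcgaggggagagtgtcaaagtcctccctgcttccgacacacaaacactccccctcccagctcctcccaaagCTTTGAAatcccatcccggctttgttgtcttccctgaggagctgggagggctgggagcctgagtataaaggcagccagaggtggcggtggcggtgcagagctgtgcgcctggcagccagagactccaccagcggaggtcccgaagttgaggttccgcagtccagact
Shisa3: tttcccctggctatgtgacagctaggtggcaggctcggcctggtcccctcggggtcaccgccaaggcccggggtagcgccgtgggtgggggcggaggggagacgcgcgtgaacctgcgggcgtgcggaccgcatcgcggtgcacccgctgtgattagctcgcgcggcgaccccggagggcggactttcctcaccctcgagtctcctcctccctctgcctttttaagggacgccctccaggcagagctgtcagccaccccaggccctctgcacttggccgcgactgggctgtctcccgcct
Msx1: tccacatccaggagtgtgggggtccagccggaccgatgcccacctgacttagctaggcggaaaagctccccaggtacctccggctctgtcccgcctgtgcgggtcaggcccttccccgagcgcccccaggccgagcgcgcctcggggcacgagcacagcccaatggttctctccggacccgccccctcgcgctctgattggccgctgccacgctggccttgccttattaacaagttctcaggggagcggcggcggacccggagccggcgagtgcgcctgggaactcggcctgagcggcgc
The *Dkk1* window held 1 match, which began 117 bases before the RefSeq start used for the window, and the other windows held none. The *Dkk1* span given above reaches further upstream than this RefSeq start, and the match lies inside that span. Of 32851 promoters in the table, 8.65% held a match. The match is a description of these letters and not a measured binding site.

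The positive class made up 38.9% of the wells of plate 1 (124 of 319, 95% Clopper-Pearson interval 33.5% to 44.5%), 34.7% of plate 2 (117 of 337) and 30.2% of plate 3 (102 of 338), or 34.6% ± 4.35 (SD, n = 3). This share depends on depth. After each well was thinned to 3000 UMIs it was 14.3% ± 1.45 (SD, n = 3). Of the 77 wells with *Tdgf1*, 10.4% had a sum of 2 or more at a median of 18066 UMIs, and 5.19% after thinning. After TGF-β2 treatment the share was 4.63% ± 1.51 on day 3 (T3), 1.42% ± 0.786 on day 6 (T6) and 1.55% ± 0.697 on day 9 (T9; SD, n = 3 each). The T0 plates all lay above the plates of every other time point, thinned or not, and those of T6 and T9 overlapped. Both genes were lower at the later time points. The *Dkk1* level over the wells of a plate was 146 ± 36.8 CPM (counts of the gene per 1000000 UMIs) before treatment and 18.8 ± 6.58, 13.7 ± 18.3 and 12.7 ± 16.9 CPM at the later time points in order. That of *Shisa3* was 66.6 ± 12.4, 9.12 ± 2.02, 3.03 ± 2.48 and 4.54 ± 1.80 CPM. *Dkk1* and *Shisa3* chose the class, so these values are a description with no test. All T3, T6 and T9 plates had received TGF-β2, so the treatment and the time in culture cannot be told apart.

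**Figure D1:**
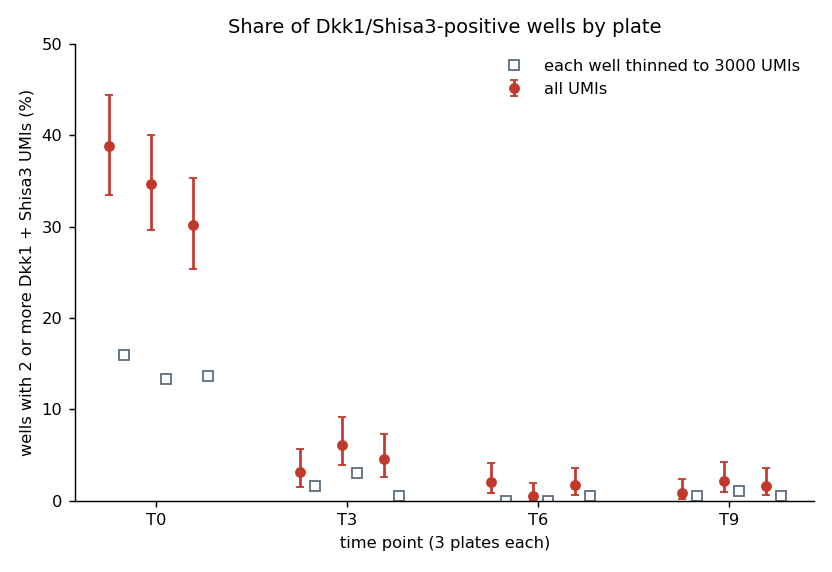
Share of wells, in percent, with 2 or more *Dkk1* and *Shisa3* UMIs in each of the 12 plates by time point. Filled points with 95% Clopper-Pearson intervals use all UMIs and open squares use 3000 UMIs per well. The T0 plates lie between 30.2% and 38.9%, and between 13.3% and 16.0% after thinning.

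Within the positive class, 178 wells held *Dkk1* UMIs only, 55 held *Shisa3* UMIs only and 110 held both. Of the 413 wells with a *Dkk1* UMI, 26.6% also held *Shisa3*, and of the other wells 17.2% did, with median depths of 10879 and 9926 UMIs. Positive wells were deeper than negative wells in each plate. Their median UMI count was between 10089 and 11734 per plate, against 9033 to 10830, and their median gene count was between 3432 and 3902, against 3260 to 3720. A rule that asks for 2 UMIs favours deep wells, and for this reason a comparison at matched depth is given beside the results it moves. The sums per plate and class held between 1035231 and 1803750 UMIs. All plates use the same 384 well barcodes by design.

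UMIs were summed per plate and class, *Dkk1* and *Shisa3* were left out, and the classes were compared within plates. Of 10352 genes tested, 184 (1.78%) were called at an adjusted p of 0.05 by edgeR's quasi-likelihood test with Benjamini-Hochberg adjustment. In positive wells 57 were higher (0.551%) and 127 were lower (1.23%). Each count of called list members given below stands beside these shares. Among the higher genes were limb transcription factors, matrix genes and the netrin receptor gene *Unc5c*, and among the lower genes were epithelial keratins and claudins and smooth muscle actin. For 155 of the 184 called genes the classes did not overlap over the 3 plates, against 1262 of all genes tested (12.2%). Of the 184, 178 moved the same way in all 3 plates. The genes were called on these same plates, so both counts are partly set by that choice. DESeq2 called 41 of the 184, and without plate 3 edgeR called 290 genes. With a negative well of like depth for each positive well edgeR called 270 genes, 176 of the 184 among them.

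**Figure D2:**
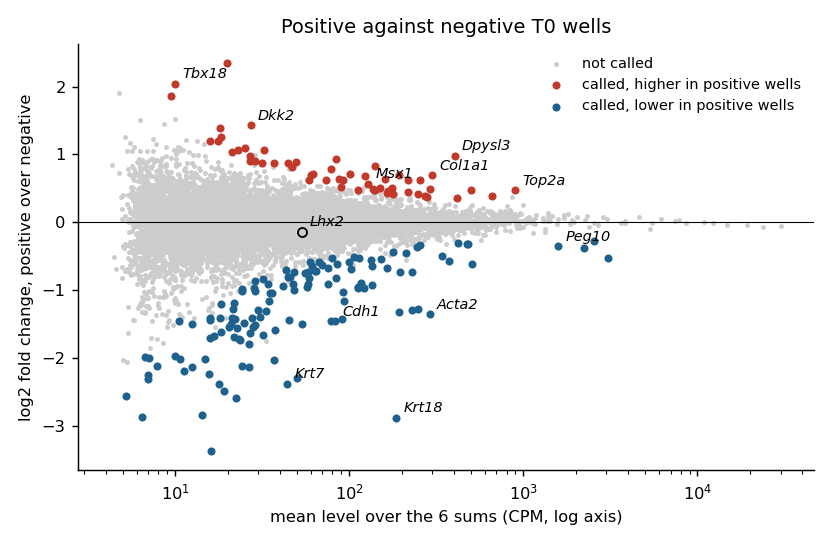
Log2 fold change of positive over negative T0 wells against the mean level over the 6 sums in CPM (log axis), 1 point per gene tested. Called genes are in colour, 57 above 0 and 127 below, and *Lhx2* is ringed at -0.14.

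The cells were checked against the genes that name them. *Msx1* stood at 173, 166 and 123 CPM in the positive wells of plates 1, 2 and 3 and at 106, 104 and 99.2 CPM in the negative wells. The classes did not overlap, and the log2 fold change was 0.57 (SE 0.11, edgeR adjusted p = 0.00974). At 3000 UMIs per well, 26.6%, 27.4% and 23.5% of positive wells held an *Msx1* UMI, against 20.1%, 22.2% and 21.1% of negative wells. *Lhx2* went against its place among the marker genes. It stood at 47.2, 74.5 and 29.96 CPM in positive wells and at 33.5, 76.9 and 59.3 CPM in negative wells, so that the classes overlapped (log2 fold change -0.14, SE 0.20, edgeR adjusted p = 0.880). Between 15.7% and 25.6% of positive wells and between 14.4% and 23.3% of negative wells held *Lhx2*. In wells with 2 or more *Shisa3* UMIs, whatever their *Dkk1* count, *Lhx2* was lower than in negative wells (log2 fold change -1.36, SE 0.29, edgeR adjusted p = 0.000627). The class is therefore named here by *Dkk1* and *Shisa3* alone. General limb mesenchyme genes were present in both classes. *Prrx1* stood at 459, 588 and 522 CPM in positive wells and at 383, 459 and 527 CPM in negative wells (edgeR adjusted p = 0.304), and *Twist1* at 291, 260 and 251 against 206, 243 and 254 CPM (edgeR adjusted p = 0.469).

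Of the Wnt lists, 1 of 7, 2 of 18 and 2 of 14 tested genes were higher, beside 0.551% of all genes, and 0 were lower. Of 21 further Wnt antagonists 7 could be tested, and 1, *Dkk2*, was higher, with a list median of 0.09 on the log2 scale beside 0.0025 for all genes tested. *Dkk2*, which encodes a relative of Dkk1 that also binds LRP5 and LRP6, stood at 41.1, 41.2 and 36.7 CPM in positive wells and at 16.2, 10.4 and 17.7 CPM in negative wells. The log2 fold change was 1.43 (SE 0.23, edgeR adjusted p = 0.00237, DESeq2 adjusted p = 0.0624). The secreted antagonists *Sfrp1* and *Frzb* had log2 fold changes of 0.09 and 0.37 and were not called. Of 40 ligands, R-spondins and receptors 18 were tested, with a median of 0.04, and the receptors *Fzd4* (1.86) and *Ror1* (0.62) were higher. *Fzd4* rested on levels of 10.4, 19.9 and 14.5 against 4.35, 4.88 and 2.77 CPM. Its call was lost without plate 2 (edgeR adjusted p = 0.0806) and that of *Ror1* without plate 3 (edgeR adjusted p = 0.110). Of 26 target and feedback genes 14 were tested, with a median of 0.05, and *Msx1* and *Bambi* were higher. The widely used β-catenin targets *Axin2* (0.27), *Lef1* (-0.34) and *Nkd1* (0.21) were not called.

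Limb transcription factors were the list with the most higher genes. Of 40, 34 were tested, 7 were higher and 0 lower, beside 0.551% and 1.23% of all genes. The median was 0.20, beside 0.0025 for all genes. Among the 7 were *Msx1*, *Tbx18*, *Alx4*, *Meis1*, *Hoxd10* and *Hoxd11*. Without the epithelial wells described below, 2 genes of the list were higher and its median was 0.11. *Meis1*, a homeobox gene of proximal limb mesenchyme, stood at 316, 317 and 390 CPM in positive wells and at 217, 248 and 259 CPM in negative wells (log2 fold change 0.49, SE 0.08, edgeR adjusted p = 0.00266). *Hoxd10*, a posterior Hox gene, stood at 134, 123 and 117 CPM against 90.1, 70.2 and 68.2 CPM (log2 fold change 0.71, SE 0.12, edgeR adjusted p = 0.00277). For both genes every positive sum lay above every negative sum. *Hoxd11* (0.46), *Alx4* (0.81) and *Tbx18* (2.04) were higher too. *Alx4* was not called without plate 2 (edgeR adjusted p = 0.139) or at matched depth (edgeR adjusted p = 0.0552), and *Tbx18*, at 9.94 to 23.2 against 3.05 to 4.97 CPM, was not called without plate 3 (edgeR adjusted p = 0.0729). The more distal *Hoxd13* (0.15) and *Hoxa13* (-0.18) were not called. DESeq2 called none of the 7. Exons of *Meis1*, *Hoxd10*, *Hoxd11* and *Tbx18* overlap those of other annotated genes, so part of their UMIs may belong to these.

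Of the other signalling lists, BMP genes had 3 of 20 tested higher, beside 0.551% of all genes. These were *Bambi*, *Fstl1* and *Msx1*, and the list median was -0.01. *Bambi*, a decoy receptor of the BMP and TGF-β family, stood at 109, 93.7 and 96.6 CPM in positive wells and at 70.2, 49.4 and 53.8 CPM in negative wells (log2 fold change 0.78, SE 0.13, edgeR adjusted p = 0.0033). *Fstl1*, a secreted BMP-binding protein, stood at 751, 769 and 739 CPM against 542, 591 and 582 CPM (log2 fold change 0.40, SE 0.07, edgeR adjusted p = 0.00266, DESeq2 adjusted p = 0.0225). Both were higher in every plate. TGF-β genes had 2 of 16 tested lower, *Tgfb2* and *Ccn2*, beside 1.23% of all genes, and a median of -0.26. *Tgfb2*, the ligand later added to these cultures as a protein, stood at 54.6, 48.3 and 39.6 CPM against 111, 56.1 and 71.0 CPM (log2 fold change -0.72, SE 0.16, edgeR adjusted p = 0.0286). Neither *Tgfb2* nor *Ccn2* was called without plate 1 (edgeR adjusted p = 0.258 and 0.111), and neither was called without the epithelial wells (values given with that comparison). No gene was called among 15 FGF, 8 hedgehog and 15 retinoic acid genes tested, whose medians were 0.19, 0.07 and 0.12, nor among 5 somite, 7 lateral plate and 5 neural crest genes tested, at 0.31, 0.33 and 0.02.

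The higher gene with the smallest adjusted p was *Dpysl3*, which encodes a cytoskeletal protein of migrating cells and growth cones. It stood at 520, 557 and 526 CPM in positive wells and at 265, 233 and 314 CPM in negative wells (log2 fold change 0.98, SE 0.09, edgeR adjusted p = 3.23e-06, DESeq2 adjusted p = 7.15e-11). At 3000 UMIs per well, 62.9%, 72.6% and 62.7% of positive wells held it, against 40.3%, 42.6% and 44.4% of negative wells. *Scrn1* stood at 154, 189 and 196 CPM against 93.8, 111 and 95.9 CPM (log2 fold change 0.83, SE 0.11, edgeR adjusted p = 0.000214), and part of its exons overlap *Wipf3*. In both genes the classes did not overlap, and DESeq2 called both. Adhesion and guidance genes had 2 of 28 tested higher, *Cdh11* and *Unc5c*, and 1 lower, *Cdh1*, beside 0.551% and 1.23% of all genes. Their median was 0.29. *Unc5c*, a netrin receptor, stood at 278, 344 and 302 CPM against 208, 223 and 166 CPM (log2 fold change 0.62, SE 0.09, edgeR adjusted p = 0.000921). *Cdh11*, a mesenchymal cadherin, stood at 215, 187 and 185 CPM against 112, 122 and 144 CPM (log2 fold change 0.64, edgeR adjusted p = 0.00381).

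Matrix genes moved in part. Of 22 basement membrane and matrix genes tested, *Vcan* and *Lama1* were higher and none was lower (median 0.02). *Vcan*, a large proteoglycan of embryonic mesenchyme, stood at 249, 265 and 276 CPM against 130, 200 and 186 CPM (log2 fold change 0.62, SE 0.10, edgeR adjusted p = 0.00181). *Lama1* (0.87) was not called without plate 3 (edgeR adjusted p = 0.0999). Of 8 tendon genes tested, the type I collagen genes *Col1a1* and *Col1a2* were higher and the median was 0.08. *Col1a1* stood at 416, 281 and 415 CPM against 282, 185 and 215 CPM (log2 fold change 0.70, SE 0.09, edgeR adjusted p = 0.000214), so that it was higher within each plate although the classes overlapped across plates. *Col1a2* (0.45) was not called without plate 3 (edgeR adjusted p = 0.0516). *Scx*, the early tendon factor, stood at 7.97, 2.84 and 7.73 CPM against 16.2, 7.32 and 20.0 CPM (log2 fold change -1.21, SE 0.36, edgeR adjusted p = 0.118), which did not pass, while at matched depth it did (-1.46, edgeR adjusted p = 0.0375). No chondrocyte gene of 7 tested was called (median 0.27), and *Sox9* stood at 138, 248 and 184 against 157, 149 and 157 CPM (edgeR adjusted p = 0.464). The mesenchymal progenitor genes *Hmga2* (0.08) and *Sox11* (0.04) were not called, nor was *Aldh1a2* (0.07). Of that list's 11 tested genes, with a median of -0.02, *Peg10* was lower (-0.35), a call lost without plate 1 (edgeR adjusted p = 0.148).

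Among called genes with a mean of 30 CPM or more and no overlap between the classes, others of the 12 with the largest increase were *Col14a1* (1.07), a fibril-associated collagen, the transcription factor gene *Cux2* (0.90), *Piezo2* (0.88), which encodes a mechanically gated channel, *Pcdh11x* (0.87), the adhesion gene *Alcam* (0.71) and *Fkbp14* (0.70). *Piezo2* was the most even of them, at 59.5, 59.6 and 54.1 against 30.4, 31.7 and 31.6 CPM (SE 0.16, edgeR adjusted p = 0.00801). *Cux2* was not called without plate 1 (edgeR adjusted p = 0.0677), and *Pcdh11x*, *Alcam* and *Fkbp14* were not called without plate 2 (edgeR adjusted p = 0.249, 0.419 and 0.254).

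**Figure D3:**
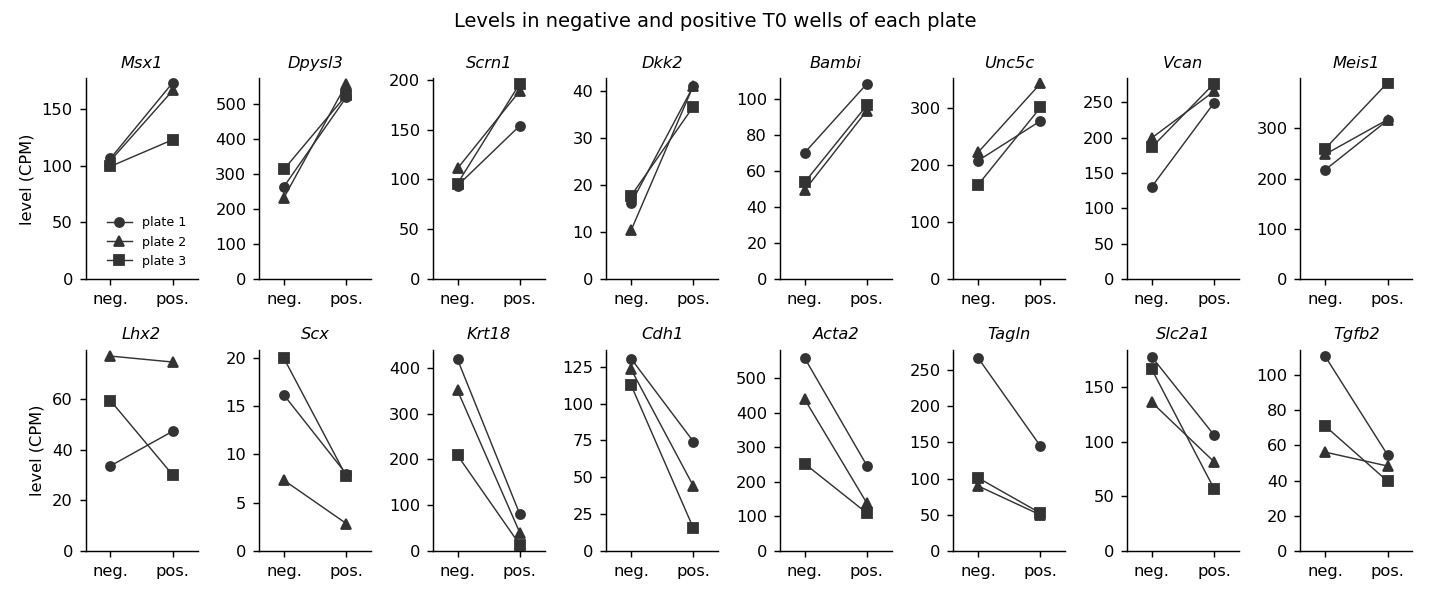
Levels in CPM of 16 genes in the negative (left) and positive (right) T0 wells of plates 1, 2 and 3, with a line joining the classes of a plate. *Msx1*, *Dpysl3*, *Scrn1*, *Dkk2*, *Bambi*, *Unc5c*, *Vcan* and *Meis1* rise in every plate, *Lhx2* rises in plate 1 only, and *Scx* (not called), *Krt18*, *Cdh1*, *Acta2*, *Tagln*, *Slc2a1* and *Tgfb2* are lower in every plate.

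Epithelial markers were the list with the most lower genes. Of 14 epithelial markers 11 were tested, 9 were lower and 0 higher, beside 1.23% and 0.551% of all genes, and the median was -1.69. *Krt18*, a keratin of simple epithelia, stood at 80.3, 39.7 and 13.5 CPM in positive wells and at 419, 351 and 209 CPM in negative wells (log2 fold change -2.88, SE 0.16, edgeR adjusted p = 1.55e-08). *Cdh1*, the epithelial cadherin, stood at 74.2, 44.0 and 15.5 CPM against 130, 123 and 113 CPM (log2 fold change -1.45, SE 0.21, edgeR adjusted p = 0.000921). *Krt7*, *Krt8*, *Krt19*, *Epcam*, *Cldn4*, *Cldn6* and *Cldn7* were lower by -2.38, -2.48, -2.59, -1.69, -1.56, -1.42 and -2.13 on the log2 scale, and *Cldn4* was not called without plate 2 (edgeR adjusted p = 0.141). The summed level of the list was 150 to 383 CPM in positive sums and 738 to 945 CPM in negative sums. *Krt18* UMIs were found in 22.8% to 27.3% of negative and 11.8% to 21.4% of positive wells per plate. For *Cdh1* the shares were 14.8% to 27.3% and 11.8% to 22.6%, with the positive share above the negative share in plate 2. A limit of 2 UMIs was passed by fewer wells. Wells with 2 or more UMIs of *Epcam* and *Cdh1* made up 6.45%, 6.84% and 2.94% of positive wells and 13.7%, 8.64% and 10.0% of negative wells, or 19 and 51 wells in all.

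With these 70 epithelial wells left out, edgeR called 29 of 9915 genes (0.292%). Of the 184 genes called with all wells, 155 could still be tested, 153 kept their direction and 28 were still called, 15 higher and 13 lower. Most wells are shared by the 2 comparisons, and of all 9915 genes 86.8% kept their direction. The median log2 fold change of the lower genes went from -1.15 to -0.51 and that of the higher genes from 0.69 to 0.55. The wells were chosen on *Epcam* and *Cdh1*, so the fold change of *Cdh1* without them (0.15) is set by that choice. Of the other epithelial markers called with all wells, *Krt7* (0.17), *Krt18* (-0.99) and *Cldn6* (-0.33) could still be tested and were not called. Among those still higher were *Dpysl3* (0.91, edgeR adjusted p = 1.62e-05), *Scrn1* (0.72), *Col1a1* (0.63), *Unc5c* (0.49), *Vcan* (0.47), *Meis1* (0.39), *Bambi* (0.74), *Dkk2* (1.29), *Tbx18* (1.98), *Col14a1* (1.11) and *Top2a* (0.40). *Msx1* (0.43, edgeR adjusted p = 0.142) and *Hoxd10* (0.56, edgeR adjusted p = 0.0596) kept their direction and were not called. The same held for *Ror1*, *Alx4*, *Hoxd11*, *Fstl1*, *Cdh11*, *Lama1*, *Col1a2*, *Cux2*, *Piezo2*, *Pcdh11x*, *Alcam*, *Fkbp14*, *Cenpf* and *Pdgfra*, with edgeR adjusted p between 0.0596 (*Fstl1* and *Piezo2*) and 0.729 (*Lama1*), and *Fzd4* was too low to be tested. Of the lower genes, *Tgfb2* (-0.65, edgeR adjusted p = 0.253), *Ccn2* (-0.41, edgeR adjusted p = 0.922), *Peg10* (-0.14, edgeR adjusted p = 0.787) and *Fosb* (-1.05, edgeR adjusted p = 0.0674) were not called either.

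**Figure D4:**
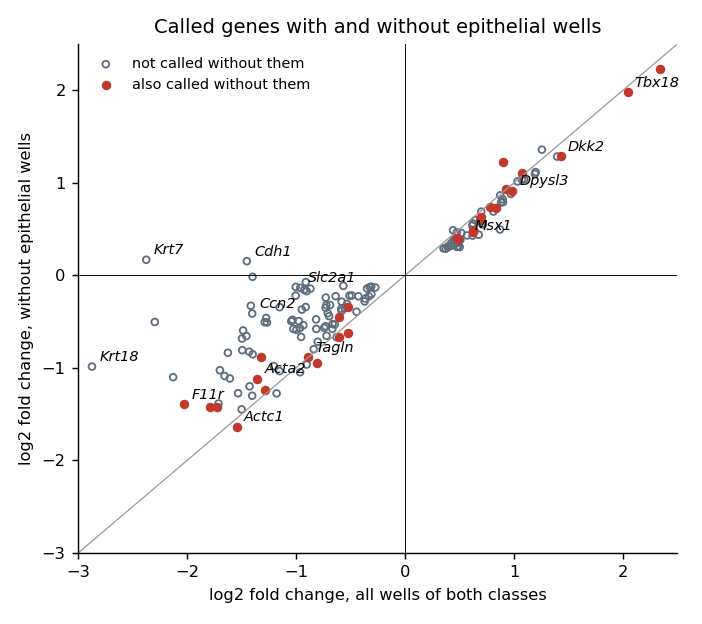
Log2 fold change of positive over negative T0 wells with all wells (x axis) and without wells that held 2 or more UMIs of *Epcam* and *Cdh1* (y axis), for the 155 called genes tested in both, with the line of equality. The higher genes stay near the line (median 0.55 against 0.69), many lower genes move towards 0 (median -0.51 against -1.15), and *Acta2*, *Tagln* and *Actc1* stay near it.

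Smooth muscle genes were lower in part, with and without the epithelial wells. Of 7 markers 5 were tested, *Acta2* and *Tagln* were lower and the median was -0.14. *Acta2*, smooth muscle actin, stood at 247, 138 and 109 CPM in positive wells and at 558, 439 and 252 CPM in negative wells (log2 fold change -1.36, SE 0.10, edgeR adjusted p = 4.59e-07). Without the epithelial wells its log2 fold change was -1.12 (edgeR adjusted p = 8.42e-07). *Tagln* stood at 145, 49.7 and 52.2 CPM against 267, 89.7 and 101 CPM (log2 fold change -0.89, SE 0.11, edgeR adjusted p = 0.000188), lower within each plate. At 3000 UMIs per well, *Acta2* was held by 29.8%, 11.97% and 19.6% of positive wells and by 33.1%, 24.1% and 21.7% of negative wells, so the shares of wells differed less than the levels. The sarcomeric actin gene *Actc1* was the only gene tested of the skeletal and cardiac muscle list and was lower (-1.54, edgeR adjusted p = 0.0033). The summed level of the smooth muscle list was 279 to 545 CPM in positive and 466 to 987 CPM in negative sums, which overlap, with *Myh11* at 0 in positive wells.

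Further lower genes were *F11r* (-2.03), *Itga6* (-1.43), *Anxa1* (-1.46), *Anxa3* (-1.50), *Sfmbt2* (-2.30), *Tnfrsf12a* (-1.40) and the nuclear RNA *Neat1* (-1.66). *F11r*, which encodes a tight junction protein, was the only one of these still called without the epithelial wells (-1.39, edgeR adjusted p = 0.0473). Of 20 glycolysis and hypoxia genes tested, *Slc2a1* and *Ndrg1* were lower and the median was -0.07. *Slc2a1*, the main glucose transporter gene, stood at 106, 81.6 and 57.0 CPM against 178, 136 and 166 CPM (log2 fold change -0.96, SE 0.14, edgeR adjusted p = 0.0006), but at -0.14 (edgeR adjusted p = 0.952) without the epithelial wells. Of 21 immediate early and stress genes tested, *Fosb* and *Cdkn1a* were lower and the median was -0.21. *Cdkn1a* had a log2 fold change of -0.57 with all wells and of -0.11 without the epithelial wells, and *Fosb* was not called without plate 1 (edgeR adjusted p = 0.217) or at matched depth (edgeR adjusted p = 0.0636).

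Dividing cells were frequent in both classes, and UMIs of *Top2a* or *Mki67* were found in 87.3% to 93.5% of positive wells and 85.0% to 87.8% of negative wells per plate. G2M phase genes took 0.885% to 0.925% of the UMIs of positive sums and 0.709% to 0.850% of negative sums. Of 51 G2M genes tested, *Top2a* and *Cenpf* were higher, 0 were lower and the median was 0.24, while of 39 S phase genes none was called and the median was 0.02. *Top2a* stood at 1086, 985 and 1051 CPM against 608, 772 and 883 CPM (log2 fold change 0.47, SE 0.09, edgeR adjusted p = 0.00665, DESeq2 adjusted p = 0.628). *Cenpf* (0.44) was not called without plate 1 or plate 2 (edgeR adjusted p = 0.0902 and 0.135). Wells with neither *Top2a* nor *Mki67* were too few for the comparison. With between 8 and 13 such positive and 17 and 27 such negative wells per plate, 2448 genes could be tested by edgeR, 0 were called and 109 had an unadjusted p under 0.05.

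Markers of other cell types were compared as whole lists. Of 5 pluripotent markers tested none was called (median -0.25), with summed levels of 59.9 to 150 CPM in positive and 77.1 to 194 CPM in negative sums. *Utf1* and *Sox2* had log2 fold changes of -0.19 and -0.30. Of 2 endothelial and blood markers tested none was called (median -0.02). The list summed to 64.8 to 74.8 against 44.5 to 72.7 CPM, and 8 of them, with *Cdh5*, *Tek* and *Tie1* among them, were at 0 in positive wells. Parietal endoderm markers summed to 1236 to 1449 against 1032 to 1536 CPM, with *Lama1* called of 10 tested and a median of 0.11. Of 3 neural markers tested none was called (median -0.51), and 1 of them, *Stmn2*, had a log2 fold change of 0.38 (edgeR adjusted p = 0.141). The neural list summed to 959 to 1103 CPM in positive and 647 to 1107 CPM in negative sums, which overlap. Of its members, 5 were at 0 in positive wells, with *Sox1* and *Dcx* among them. Feeder fibroblast markers summed to 1795 to 1997 CPM in positive and 1367 to 1597 CPM in negative sums, without overlap, and 3 of 5 tested were higher, *Pdgfra*, *Col1a1* and *Col1a2* (median 0.45). Embryonic mesenchyme expresses these 3 genes as well. *Pdgfra* (0.48) was not called without plate 2 (edgeR adjusted p = 0.137). Of the 13 feeder markers only 1, *Dpt*, was at 0 in positive wells. The part of these cell types in the class difference was not tested beyond the epithelial wells.

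The positive wells were not uniform. Wells with *Shisa3* UMIs only (20, 11 and 24 in plates 1, 2 and 3) were compared with wells with *Dkk1* UMIs only (62, 71 and 45) in the same way, a comparison chosen after seeing the data. Of 6060 genes tested, edgeR called 52 (0.858%), of which 33 were higher in *Shisa3* wells and 19 in *Dkk1* wells. Limb transcription factors lay on both sides: of 28 tested, *Meis1* was higher in *Shisa3* wells, and *Msx1*, *Prrx2*, *Pitx1*, *Alx4*, *Hoxa10* and *Hoxd13* were higher in *Dkk1* wells.

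*Msx1* stood at 226, 203 and 212 CPM in *Dkk1* wells and at 86.8, 90.5 and 32.9 CPM in *Shisa3* wells (log2 difference, *Shisa3* minus *Dkk1* wells, -1.65, SE 0.26, edgeR adjusted p = 0.000113). In wells with UMIs of both it stood at 145, 114 and 88.3 CPM, which overlaps the negative wells. Against negative wells the log2 fold change was 1.04 for wells with *Dkk1* only, 0.17 for wells with both and -0.63 for wells with *Shisa3* only. *Prrx2*, a limb mesenchyme homeobox gene, stood at 206, 189 and 183 CPM in *Dkk1* wells and at 72.9, 99.5 and 47.5 CPM in *Shisa3* wells (log2 difference -1.45, SE 0.25, edgeR adjusted p = 0.000619). The distal limb gene *Hoxd13* stood at 108, 87.4 and 97.6 against 31.3, 36.2 and 32.9 CPM (-1.55, edgeR adjusted p = 0.0114), but was not called without plate 1 or plate 3 (edgeR adjusted p = 0.352 and 0.0655). *Gata2* was at 96.7, 47.8 and 36.6 CPM in *Dkk1* wells and at 0, 9.05 and 7.30 CPM in *Shisa3* wells, and was not called without plate 1 (edgeR adjusted p = 0.395). The glucose transporter gene *Slc2a3* stood at 132, 137 and 122 against 38.2, 0 and 7.30 CPM (-2.74, SE 0.41, edgeR adjusted p = 5.62e-05).

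On the other side, *Meis1* stood at 420, 479 and 486 CPM in *Shisa3* wells and at 209, 270 and 290 CPM in *Dkk1* wells (log2 difference 0.91, SE 0.15, edgeR adjusted p = 0.000273, DESeq2 adjusted p = 0.00779). *Igfbp3*, which encodes a binding protein of insulin-like growth factors, stood at 170, 244 and 281 against 59.3, 31.5 and 90.3 CPM (1.97, SE 0.26, edgeR adjusted p = 4.97e-06). *Wt1*, a transcription factor gene of mesothelium and kidney mesenchyme, stood at 111, 181 and 135 against 36.1, 36.1 and 46.4 CPM (1.85, SE 0.30, edgeR adjusted p = 0.000212). Wells with both mRNAs lay nearer to the *Shisa3* wells for *Meis1* (368 to 433 CPM) and *Wt1* (88.1 to 134 CPM). For *Igfbp3* they lay between the *Dkk1* and the *Shisa3* wells, at 100 to 152 CPM. *Stmn2*, a neural marker, stood at 1421, 1194 and 1566 against 682, 621 and 869 CPM (0.99, SE 0.11, edgeR adjusted p = 2.74e-07). *Zdhhc2* (2.57) and *Fibin* (2.16) had the largest increases. *Msx1*, *Prrx2*, *Slc2a3*, *Meis1*, *Igfbp3*, *Wt1*, *Stmn2*, *Zdhhc2* and *Fibin* were called with any 1 plate left out. DESeq2 called 15 genes, all higher in *Shisa3* wells, and gave no adjusted p for 5404 of the 6060. At matched depth, with as many *Dkk1* as *Shisa3* wells, edgeR called 8 genes, among them *Meis1*, *Igfbp3*, *Prrx2*, *Slc2a3* and *Stmn2*, and not *Msx1* (-1.38, edgeR adjusted p = 0.147) or *Wt1* (1.41, edgeR adjusted p = 0.136).

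**Figure D5:**
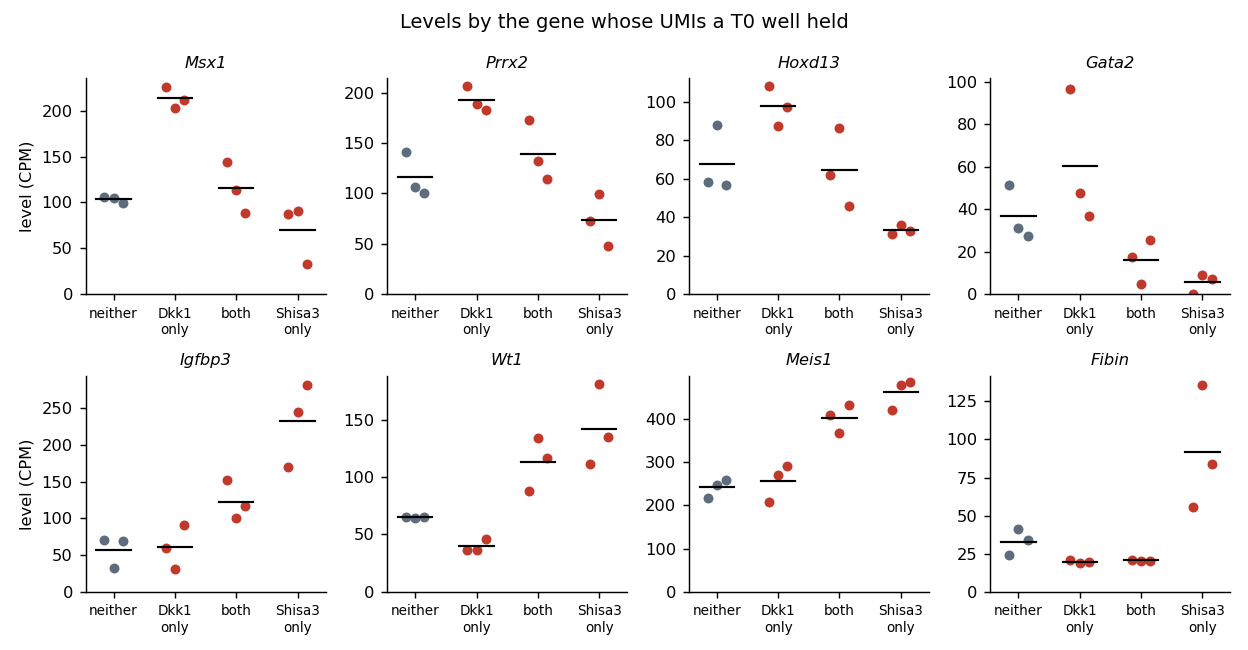
Levels in CPM of 8 genes in T0 wells with neither gene's UMIs, with *Dkk1* only, with both and with *Shisa3* only, 1 point per plate and a bar at the mean of 3 plates. *Msx1*, *Prrx2*, *Hoxd13* and *Gata2* are highest in *Dkk1*-only wells, and *Igfbp3*, *Wt1*, *Meis1* and *Fibin* in *Shisa3*-only wells.

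Wells with 1 UMI of the pair, which lie outside the positive class, did not all show this split. Between the 45 wells with 1 *Shisa3* UMI and the 125 wells with 1 *Dkk1* UMI, edgeR called 10 genes. Of the 52 genes called above 47 could be tested, 39 had the same direction and 5 were called. Of all 5355 genes tested in both comparisons, 53.8% had the same direction. *Msx1* had a log2 difference of 0.20 there, the opposite direction (edgeR adjusted p = 0.975).

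The same rule found 48 positive wells at T3, 10, 22 and 16 per plate, and too few for a comparison at T6 and T9. Of 8749 genes tested at T3 edgeR called 2 (0.0229%), with 295 at an unadjusted p under 0.05, and DESeq2 called 0. *Nefl*, a neurofilament gene, stood at 115, 150 and 243 CPM in positive and 39.9, 49.4 and 37.1 CPM in negative T3 wells, and *Mgp*, matrix Gla protein, at 478, 693 and 670 against 1332, 1104 and 1448 CPM. Neither call held without plate 3 (edgeR adjusted p = 1.00 for both), edgeR called 33 genes without plate 1, and the median log2 fold change of all genes was -0.14. *Dpysl3* had a log2 fold change of 0.14 at T3, *Scrn1* -0.35, *Dkk2* 0.14 and *Acta2* 0.30, none of them called. With 48 positive wells, against 343 at T0, the T3 comparison could miss effects of the size seen at T0. The difference between the class effects of T3 and T0 was tested directly and was called for 16 of 11261 genes (0.142%), among them *Acta2*, *Col1a1*, *Fzd4*, *Cenpf* and *Ccn2*, which had been called at T0. *Msx1* was low in all wells of the later time points, at 122 ± 11.6 CPM over all T0 wells and 5.16 ± 3.59, 0.865 ± 0.550 and 1.18 ± 1.05 CPM at T3, T6 and T9 (SD, n = 3 plates each).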

How the data were processed

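Single *ScxGFP* iPSC-derived cells at T0, T3, T6 and T9 were measured by CEL-Seq2 in 12 plates. The authors aligned trimmed reads to GRCm38 (HISAT2 2.2.1), assigned them to genes (featureCounts) and collapsed them to molecules (UMI-tools 1.0.1). The deposited values are raw UMI counts for every well. The deposited bulk tendon counts were not used here.

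Wells with at least 200 genes, 3000 UMIs and fewer than 2 *Tdgf1* UMIs were classed by their *Dkk1* and *Shisa3* sum. The sort gate excluded doublets, and none were called here. Counts were summed per plate and class without both genes and compared with edgeR 4.0.16 in R 4.3.3 (filterByExpr, TMM, quasi-likelihood test, plate as a block, Benjamini-Hochberg threshold 0.05 over all genes tested). DESeq2 1.42.0 was the other tool. The script was tested on simulated data. CPM is a gene's UMIs per 1000000 UMIs of the same wells, without length correction, since CEL-Seq2 reads the 3′ end. Sums of a class held between 1035231 and 1803750 UMIs at T0 and between 52364 and 2427593 at T3. Intervals cover counting error only. Gene positions are from a GENCODE annotation of GRCm38. The pairing comes from the design, since both classes of a pair were sorted into and processed in the same plate.

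Named genes were *Lhx2*, *Msx1*, the 12 largest changes in each direction among called genes without overlap and with a mean of at least 30 CPM, the study's genes, and members of 29 gene lists, of which some are not reported here. For the *Shisa3* and *Dkk1* wells they were the 10 largest in each direction and list members. The wells, lists and tests were chosen with earlier results of these data known. Alternatives were another tool, another scaling, no filter, no block, leaving out each plate, depth matching, thinning, other limits for the classes, and leaving out epithelial or dividing wells. Python 3.11.15 with numpy 2.4.6, scipy 1.17.1, pandas 2.3.3 and matplotlib 3.10.9 was used.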

Additional observations from a re-analysis of the deposited data

Results flagged for a closer look

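The effect of the class differed between T3 and T0 for 16 genes, by edgeR's test of the class by time point interaction with Benjamini-Hochberg adjustment over 11261 genes. None of the 16 was called between the classes at T3 itself, where the lowest edgeR adjusted p was 0.0554 (*Fam162a*). The values are log2 differences, the T3 effect minus the T0 effect. They rest on 48 positive wells at T3, of which plate 1 held 10. The sums of these wells held 52364, 180332 and 168809 UMIs in plates 1, 2 and 3, so low levels there rest on few UMIs. Mitochondrial UMIs made up 29.3%, 13.4% and 20.6% of these sums.

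The difference was positive for 5 genes. *Acta2*, lower in positive wells at T0 (-1.36), was at 0.30 at T3, where its positive wells stood at 363, 1409 and 1529 CPM and its negative wells at 721, 842 and 827 CPM, so that plate 1 went the other way (difference 1.72, SE 0.22, edgeR adjusted p = 1.4e-11). *S100a6*, a calcium-binding protein gene, was lower at T0 (-1.03) and at 1.18 at T3, with a difference of 2.02 (edgeR adjusted p = 0.000481). *Ccn2*, a TGF-β and YAP target, had a difference of 2.17 (edgeR adjusted p = 0.000812), the cytochrome P450 gene *Cyp1b1* one of 3.37, and the matrix gene *Thbs1* one of 1.84 (edgeR adjusted p = 0.00395 for both). At T3 *Thbs1* went the other way in plate 1, at 0 CPM in positive and 62.3 CPM in negative wells. The T0 call of *Ccn2* was lost without the epithelial wells. Such wells made up 8.64% to 13.7% of negative wells per plate at T0 and 0.315% to 2.17% at T3. Of positive wells they made up 2.94% to 6.84% at T0 and 0% at T3. Their part in these differences was not tested.

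It was negative for 11 genes. *Sox9*, the chondrogenic factor, was at 0.27 at T0 and at -1.64 at T3, where positive wells stood at 57.3, 44.4 and 35.6 CPM and negative wells at 123, 141 and 114 CPM (difference -1.98, SE 0.41, edgeR adjusted p = 0.00395). *Col1a1*, *Fzd4* and *Cenpf*, higher at T0, had differences of -0.92, -3.20 and -1.65. The other differences were -1.14 for *2410006H16Rik*, -0.91 for *Fam162a*, -3.01 for *Gfod2*, -1.17 for *Gja1*, which encodes a gap junction protein, -1.45 for the ephrin receptor gene *Epha4*, -0.85 for the cell cycle inhibitor gene *Cdkn1c* and -1.44 for the cartilage collagen gene *Col11a1*. Adjusted p-values of the 11 lay between 0.00395 and 0.0457. The 2 largest of these differences rest on few UMIs. In positive T3 wells *Gfod2* stood at 0, 22.2 and 5.93 CPM and *Fzd4* at 19.1, 11.1 and 35.6 CPM.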

How the results depend on the processing

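The share of T0 wells in the positive class was 14.3% at 3000 UMIs per well, 51.7% for a sum of 1 or more and 20.1% for a sum of 4 or more. For positive against negative T0 wells, 184 genes were called. The count was 41 with DESeq2, 64 without the replicate block, 333 without the filter on low counts, 57 after thinning, 51 with the classes set after thinning, 54 for a sum of 1 or more and 297 for a sum of 4 or more. It was 306 for 2 or more *Shisa3* UMIs, 51 for wells with *Dkk1* UMIs only, 474 with no limit on *Tdgf1*, 29 without epithelial wells and 0 without dividing wells, where fewer wells and genes were left. Leaving out each plate gave 198 to 290. At T3 the count of 2 became 0 with DESeq2, 8 without the filter, 1 without the replicate block and 0 at matched depth, and leaving out each plate gave 0 to 33. For *Shisa3* against *Dkk1* wells the count of 52 became 15 with DESeq2, 19 without the replicate block, 8 at matched depth, 25 after thinning and 10 in wells with 1 UMI, and 39 to 66 with each plate left out. The cause was not tested, except where fewer wells or genes entered.

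Of 1619 values of named genes under the alternatives, 1148 kept direction and call, 443 kept direction and lost the call, 9 gained a call and 19 called values changed sign. *Msx1* was -0.44 for 2 or more *Shisa3* UMIs and -0.63 for *Shisa3* UMIs only, and *Alx4* -0.071 and -0.42. Without epithelial wells *Krt7* was 0.17 and *Cdh1* 0.15. Without dividing wells *Anxa1* was 0.11, *Cdh1* 0.15, *Tagln* 0.44, *Slc2a1* 0.37, *Vcan* -0.062, *Cldn4* 0.013 and *Peg10* 0.14. In wells with 1 UMI the *Shisa3* minus *Dkk1* difference was -0.72 for *Socs3*, 0.45 for *Dab2*, 0.20 for *Msx1*, 0.69 for *Sgk1*, 0.52 for *Hoxa10* and 0.55 for *Isl1*. *Lhx2*, not called between the classes, was lower for 2 or more *Shisa3* UMIs (-1.36).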

Other observations

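Genes outside the lists, chosen after their values were seen, were also lower in positive T0 wells. *Ascl2*, *Tfap2c* and *Esx1*, which encode transcription factors known from the trophoblast of the placenta, had log2 fold changes of -3.36, -2.83 and -2.01 (edgeR adjusted p = 2.64e-05, 0.000314 and 0.00396). *Ascl2* stood at 4.29, 2.13 and 1.93 CPM in positive wells and at 41.0, 25.6 and 21.6 CPM in negative wells. Without the epithelial wells these 3 genes were too low to be tested. *Gpx3*, which encodes a secreted glutathione peroxidase, stood at 167, 109 and 116 CPM against 499, 223 and 253 CPM (-1.29, edgeR adjusted p = 1.28e-06) and was at -1.24 without the epithelial wells (edgeR adjusted p = 8.42e-07).

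Hox genes lay on both sides. *Hoxc8* and *Hoxc9*, which the lists do not hold, were lower in positive wells, at -0.80 and -0.61 (edgeR adjusted p = 0.0471 and 0.0158), while *Hoxd10* and *Hoxd11* were higher, at 0.71 and 0.46. *Hoxc9* stood at 92.0, 43.3 and 68.6 CPM against 144, 70.8 and 94.8 CPM, lower within each plate. The imprinted pair *Igf2* and *H19*, neighbours in the genome, were both lower. *Igf2* stood at 2513, 2701 and 2339 CPM against 3707, 3531 and 3609 CPM (-0.53, edgeR adjusted p = 5.32e-05), and *H19* had a log2 fold change of -0.37 (edgeR adjusted p = 0.0372).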
